A study of Mus musculus with 8 samples.

Results

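Introns of one transcript can be exons of another, and 357 of the 10749 m6A peaks called with the SySy antibody in chromatin-associated RNA of mouse embryonic stem cells lay in such places. Each of the 357 peaks had its midpoint in an intron of a gene's representative transcript, which is the one with the longest coding sequence or, in noncoding genes, the longest transcript. The midpoint lay in no exon of any representative transcript and inside an exon of another annotated transcript on the same strand (GENCODE, mm10). They made up 3.32% of the SySy peaks (95% Wilson interval 3.00 to 3.68) and 40.2% of the 889 SySy peaks in introns. Of the 357 peaks, 142 belonged to confidence group 1 (Cfg1), which holds peaks called with both antibodies. The other 215 belonged to confidence group 2 (Cfg2), which holds peaks called with SySy alone where the Abcam antibody gave signal below its calling cutoff. The peaks lay in 221 introns of 216 genes, 207 of them protein-coding, on 20 chromosomes. They were 56 to 250 nt wide, with a median of 159 nt.

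The study used ChrMeRIP-seq, in which RNA that stays bound to chromatin (ChrRNA, rich in unspliced transcripts) is fragmented and precipitated with an antibody to m6A. All 8 libraries came from E14 mouse embryonic stem cells (mESC) in serum medium with LIF and carried no genetic change or treatment. Groups of 2 libraries each were SySy_ChrMeRIP, SySy_Input, Abcam_ChrMeRIP and Abcam_Input, where an input is the ChrRNA before precipitation. The deposited lists, Cfg1, Cfg2 and the Abcam-only Cfg3, hold 17068 intervals called on pooled duplicates, so no value exists per library, depth is unknown and no statement here carries a replicate error.

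m6A is a methyl mark on adenosine that the METTL3 and METTL14 complex writes while RNA is being made, mostly within the consensus DRACH, of which GGACU is a common form. In mature messenger RNA it is known to gather in long internal exons and in last exons near stop codons. Alternative last exons, alternative promoters, retained introns and shifted splice sites all make a given stretch exonic in one isoform and intronic in another, so the label of intronic depends on the transcript chosen as the reference.

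The sequences below carry GGACT, the DNA letters of GGACU, in peaks at 4 loci on which the following sections turn. They are 25-nt stretches read from the reference genome (GRCm38.p6, mm10) on the RNA strand, 5′ to 3′, with the motif in capitals. Ythdc1, which encodes a nuclear m6A reader, and Wtap, which encodes a subunit of the m6A writer complex, come first. Tor1aip2 has a motif on each side of a splice site. Baz2a, which encodes a subunit of a nucleolar remodelling complex, has 4 motifs in a single Cfg1 peak.
Ythdc1, chr5:86828237-86828261, plus strand, intron 11: caagctgcatGGACTagtttgtggc
Ythdc1, chr5:86829311-86829335, plus strand, intron 11: gttttgcaatGGACTgcaaactata
Ythdc1, chr5:86829397-86829421, plus strand, intron 11: gtcagtagttGGACTactatatgaa
Wtap, chr17:12974765-12974789, minus strand, intron 6: ataagactgtGGACTtcatgattgt
Wtap, chr17:12974705-12974729, minus strand, intron 6: tgcctttaaaGGACTtacttatgct
Tor1aip2, chr1:156051560-156051584, plus strand, exon before intron 3: caactggcttGGACTagaggcctgg
Tor1aip2, chr1:156051640-156051664, plus strand, intron 3: attctagactGGACTggtccctgag
Baz2a, chr10:128115166-128115190, plus strand, intron 7: tggtgggagaGGACTgggctggaca
Baz2a, chr10:128115186-128115210, plus strand, intron 7: ggacaggagtGGACTacaggacagt
Baz2a, chr10:128115213-128115237, plus strand, intron 7: ggagggtgcaGGACTgggcaggaca
Baz2a, chr10:128115233-128115257, plus strand, intron 7: ggacaggagtGGACTacaggacagt
The adenosines of the Tor1aip2 motifs lie at -51 and 29 nt relative to the 5′ splice site, so a single peak covers a motif in the exon before the intron and one in the intron. The second and the fourth Baz2a stretches are letter for letter the same.

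Ythdc1 and Setd4 were chosen to show introns with peaks and an alternative 5′ splice site. These 9-nt sequences give both donors of each, the last 3 exon bases and the first 6 intron bases, with the first 2 intron bases in capitals. Setd4 encodes a SET-domain methyltransferase, and its alternative donor comes from a transcript annotated as retained_intron.
Ythdc1, intron 11 of the longest coding transcript, chr5:86828119-86828127, plus strand: aagGTtaga
Ythdc1, alternative donor 1358 nt downstream, chr5:86829477-86829485, plus strand: gcgGTatgt
Setd4, intron 7 of the longest coding transcript, chr16:93590868-93590876, minus strand: cagGTgaga
Setd4, alternative donor 618 nt downstream, chr16:93590250-93590258, minus strand: tggGTaagg

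Each peak was given 1 class from its best-supported transcript. By this count 85 peaks lay in last exons with their own 3′ splice site, 79 in first exons and 78 in last exons that run on across the 5′ splice site of the intron (read-through last exons). A further 73 lay in exons covering the whole intron, 20 in single-exon transcripts and 13 in cassette exons. Internal exons lengthened by an alternative 5′ splice site held 9. No peak lay in an internal exon lengthened by an alternative 3′ splice site. First and last exons were classed as such beforehand, so those lengthened by another splice site are counted in their own classes. Alternative last exons of both kinds thus held 163 of the 357 peaks and cassette exons 13. These counts take no account of how much sequence each class covers, and densities per megabase are given below. With every transcript counted, 65 peaks fell in several classes. By that count read-through last exons held 97 peaks and internal exons with an alternative 5′ splice site 18. Counted by peak, the median length of the alternative exon was 1542 nt, 245 of the 357 were 1 kb or longer, and 4 were shorter than 200 nt. An exon with several peaks thus counts several times, and lengths of alternative exons without a peak were not compared.

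**Figure D1:**
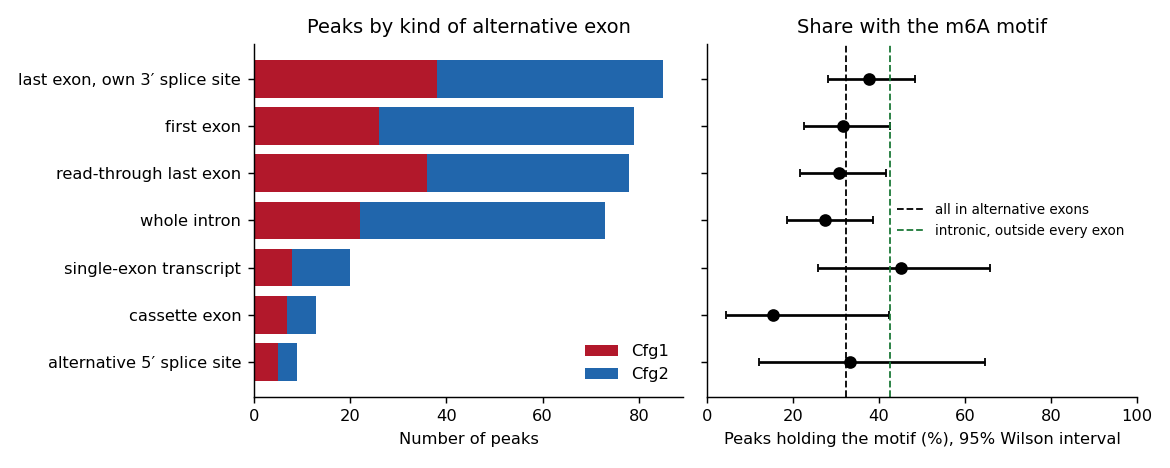
Left, number of peaks in each class of alternative exon, split into Cfg1 (red) and Cfg2 (blue); right, percentage of the peaks of each class that hold GGACT, with 95% Wilson intervals and dashed lines for all 357 peaks (black) and for SySy intronic peaks outside every exon (green). The 4 large classes hold 73 to 85 peaks each, and their GGACT shares lie between 27.4% and 37.6% with overlapping intervals.

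Support for the alternative exons was uneven. The best transcript was protein_coding for 176 peaks, retained_intron for 101, processed_transcript for 48 and nonsense_mediated_decay for 12. Read-through last exons came from retained_intron transcripts for 33 of 78 peaks and whole-intron exons for 36 of 73, against 1 of 85 for last exons with their own 3′ splice site. A retained_intron model can be a fragment, so its ends need not be true ends of RNA. For 29 peaks the best-supported transcript belonged to another gene, in 8 cases to a processed pseudogene. The 2 Cfg1 peaks in intron 8 of Braf, which encodes a kinase of the MAPK pathway, were of that sort, each with 1 GGACT.

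Per megabase, alternative exonic sequence of introns held many more SySy peaks than the rest of the introns. In the 4237 genes with a SySy peak it held 47.1 peaks per Mb (95% Poisson interval 42.3 to 52.2, 7.58 Mb), and intronic sequence outside every exon held 2.81 (2.58 to 3.06, 189 Mb). Exons of the representative transcripts in the same genes held 470 (460 to 480). Alternative exonic sequence therefore lay between the other sequence kinds. Among the classes, last exons with their own 3′ splice site reached 141 peaks per Mb (112 to 174), first exons 57.7 (45.7 to 71.9) and whole introns 51.1 (40.1 to 64.3). Read-through last exons reached 31.4 (24.8 to 39.1) and single-exon transcripts 14.2 (8.66 to 21.9). Alternative 5′ splice sites gave 172 per Mb from only 9 peaks (78.6 to 326). Cassette exons gave 69.0 per Mb from 13 peaks on 0.188 Mb (36.7 to 118). Alternative 3′ splice sites, with 0 peaks, covered only 0.0416 Mb. Their interval, 0 to 88.6 per Mb, holds the 47.1 of all alternative exonic sequence, so their 0 shows no depletion. These intervals cover counting error only, peaks of an intron are not independent, and the number of reads over each kind of sequence is not in the lists, so its part in the densities was not tested.

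**Figure D2:**
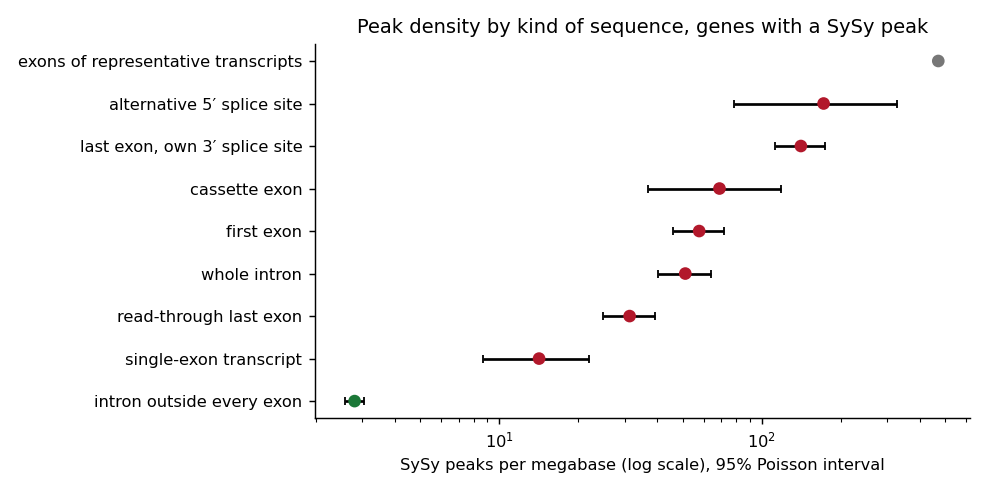
SySy peaks per megabase (log scale) with 95% Poisson intervals in exons of representative transcripts (grey), in alternative exonic sequence of introns by class (red) and in intronic sequence outside every exon (green), over 4237 genes with a SySy peak. Every class of alternative exon with a peak lies above the 2.81 peaks per Mb of the remaining intron and below the 470 of the representative exons.

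Position in the intron followed the class, as the definitions require in part, and is given without a test. The median distance of the midpoint from the 5′ splice site was 759 nt over all 357 peaks, from 1 to 179645 nt. It was 249.5 nt in read-through last exons, 286 nt in whole-intron exons and 229 nt in exons with an alternative 5′ splice site, all of which reach over the 5′ splice site. In last exons with their own 3′ splice site it was 3377 nt and in first exons 3757 nt. SySy intronic peaks outside every exon lay at a median of 2167.5 nt, in longer introns (median 7583.5 against 4146 nt). Of the 357 peaks, 153 (42.9%, 37.8 to 48.0) had their midpoint in the first 500 nt of the intron. There lay 17.1% of the alternative exonic bases of the same introns, pooled, so introns with more such sequence weigh more. Abcam-only intronic peaks inside alternative exons had a near share there, 37.8% of 230 (31.8 to 44.2). SySy intronic peaks outside every exon had 21.4% of 532 (18.2 to 25.1). The peak itself spanned the 5′ splice site in 22 cases (6.16%, 4.10 to 9.15), 12 of them in read-through last exons. Of the SySy intronic peaks outside every exon, 19 of 532 did (3.57%, 2.30 to 5.51). These intervals overlap, and the difference was not tested.

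**Figure D3:**
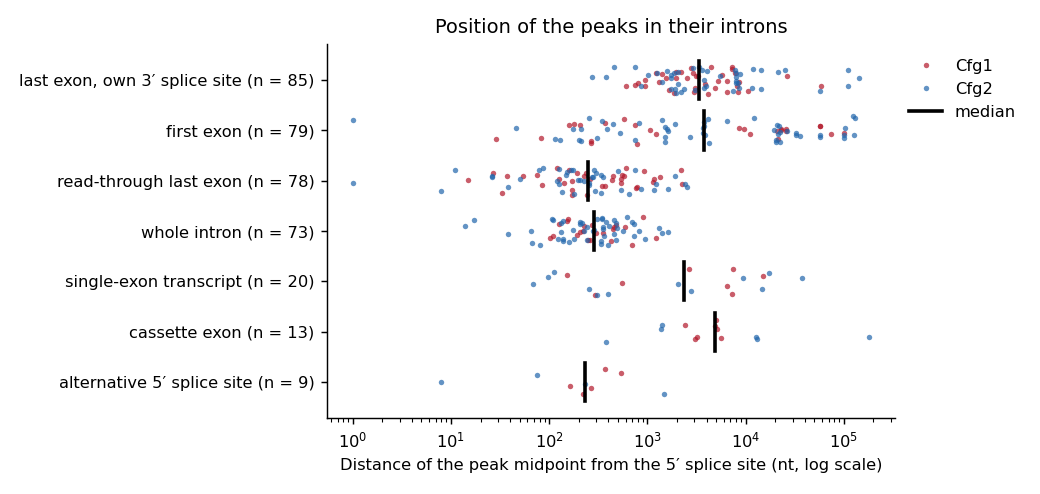
Distance of each peak midpoint from the 5′ splice site of its intron (nt, log scale) by class of alternative exon, Cfg1 in red, Cfg2 in blue, with the class median as a black bar. Medians lie at 229 to 286 nt in the 3 classes of exons that reach over the 5′ splice site and at 2332.5 to 4867 nt in the other 4.

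Last exons with their own 3′ splice site held 85 peaks in 45 genes, the most of any class with 1 class per peak. With every transcript counted they held 89, below first exons (91) and read-through last exons (97). Ttc3, which encodes an E3 ubiquitin ligase, had 7 peaks along a 2861-nt last exon in intron 9, at 1950 to 3739 nt from the 5′ splice site and 732 to 2521 nt past the stop codon of that isoform. Icosl, which encodes the ligand of the T-cell costimulator ICOS, had 6 peaks in a 1633-nt last exon in intron 5, 78 to 1170 nt past its stop codon. Csnk1e, which encodes casein kinase 1 epsilon, had 6 peaks in a 1575-nt last exon in intron 7, 356 to 1277 nt past its stop codon. In each of the 3 genes all peaks lay in the 3′ UTR of the shorter isoform. Zfp451, which encodes a SUMO ligase, had 5 peaks in an 11478-nt last exon, at -331 to 695 nt relative to its stop codon. Tfpi, which encodes an inhibitor of tissue-factor coagulation, had 4 peaks in a 2786-nt last exon and no GGACT in any of them. Icosl and Tfpi had no other SySy peak, so every SySy peak of these genes lay in an alternative last exon.

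Read-through last exons held 78 peaks in 54 genes. The Wtap peak, Cfg1, lay 534 nt into the 5736-nt intron 6 and 530 nt past the stop codon of a coding isoform whose last exon of 2790 nt begins as the exon before the intron. The intron holds 6 GGACT, and the peak covers 2 of them, those printed above. The 2 Tor1aip2 peaks lay 37 nt (Cfg1) and 282 nt (Cfg2) into intron 3 in a 2443-nt last exon, at -613 and -368 nt relative to its stop codon. Slc38a1, which encodes an amino acid transporter, had 3 Cfg1 peaks at 610, 1177 and 2200 nt, all past the stop codon of a coding isoform. Mapk8ip3, which encodes a scaffold of JNK signalling, had 4 peaks at 1913 to 2535 nt, all in a retained_intron transcript. Spen, which encodes a transcriptional repressor that binds RNA, had 1 peak of this kind, at 126 nt in intron 2, with no GGACT. The other 4 SySy intronic peaks of Spen lay outside every exon, directly downstream of the 590-nt exon, so the annotated end of that exon divides a single run of Cfg1 peaks.

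**Figure D4:**
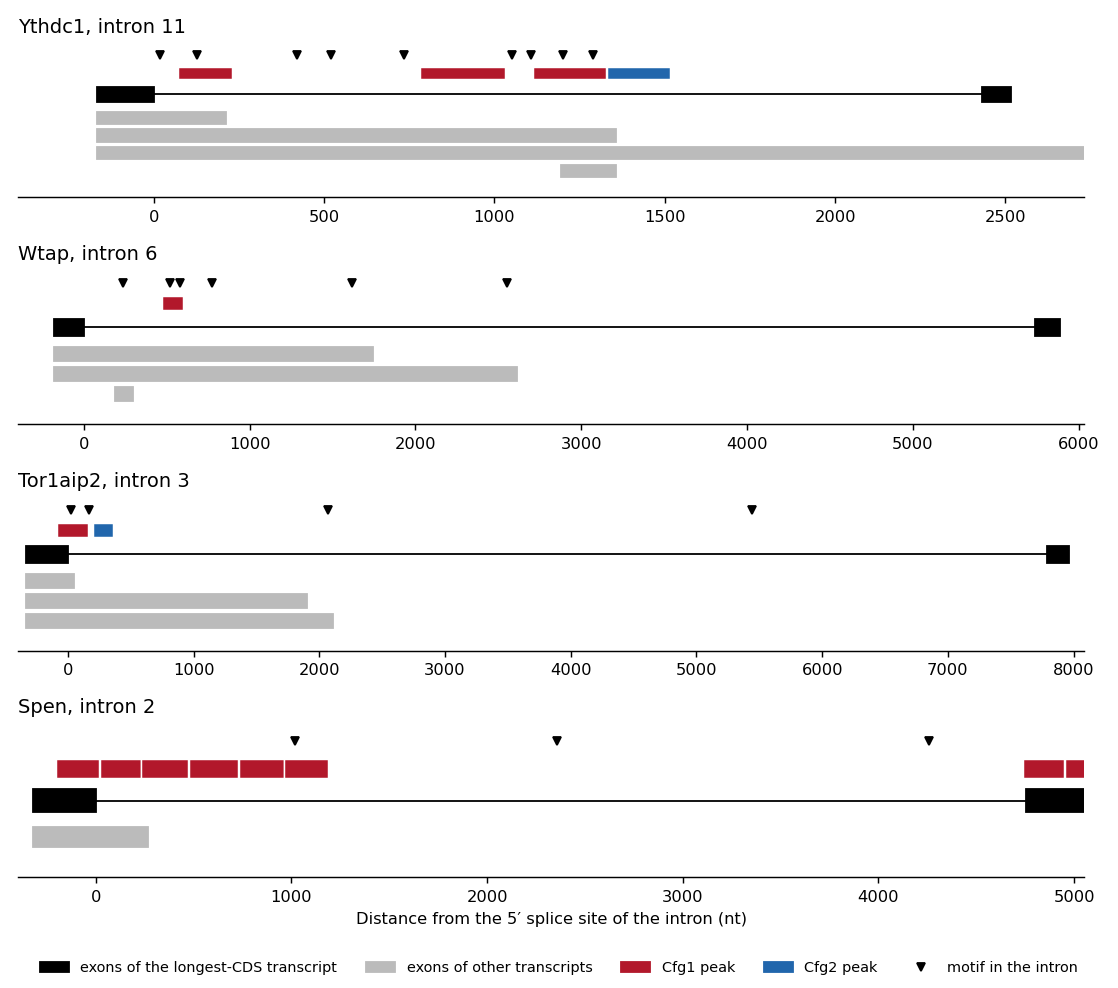
Maps of 4 introns by distance from the 5′ splice site (nt): exons of the longest-CDS transcript in black, exons of other transcripts in grey below, Cfg1 peaks in red, Cfg2 peaks in blue, and GGACT in the intron as triangles. The Ythdc1, Wtap and Tor1aip2 peaks lie over grey exons, while at Spen the run of peaks passes the end of the grey exon.

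First exons held 79 peaks in 48 genes. Of these, 44 lay in first exons inside the intron, 20 in first exons that run over the 3′ splice site, and 15 in first exons that begin upstream of the 5′ splice site. Macf1, which encodes a giant linker of microtubules and actin, had 11 peaks, the most of any gene. In Macf1, 10 peaks lay along a 4791-nt first exon in the 30085-nt intron 57 and 1 in a 287-nt first exon in intron 1. Gcnt2, which encodes an enzyme that branches blood group I glycans and is known for alternative first exons, had 5 peaks in 2 first exons of its 92302-nt intron 1. Sfswap, which encodes a splicing regulator, had 4 peaks at 211 to 1054 nt in intron 1, 3 of them with GGACT. By region of a coding alternative transcript, 28 of the 79 peaks lay in a 5′ UTR, 18 in a coding sequence and 3 in a 3′ UTR. In 22 of the 79 the midpoint lay within 200 nt of the annotated exon start. Within 100 nt lay 7 of the 79. The paper treats peaks close to transcript starts as possible m6Am, another mark that the m6A antibody cannot tell apart. It used starts mapped by CAGE sequencing and a distance below 200 nt, so the 22 peaks are not its class. Which mark these peaks carry was not tested.

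Whole-intron exons held 73 peaks in 46 genes, in short introns with a median of 975 nt. Ythdc1 had 4 peaks in the 2432-nt intron 11, at 151, 908, 1222 and 1423 nt, the first 3 in Cfg1. It had no SySy peak in a representative exon. One transcript of this gene covers the whole intron, and another of the nonsense_mediated_decay type extends the exon by 1358 nt to the alternative donor shown above. The third peak and its 2 GGACT lie before that donor, and the fourth peak spans it. Nfe2l1, which encodes a transcription factor of proteasome genes, had 4 peaks at 270 to 727 nt in intron 4, all past the stop codon of a coding isoform that keeps the intron. Ptov1 had 4 peaks in its 650-nt intron 10, all in a retained_intron transcript and none with GGACT. The Baz2a Cfg1 peak with 4 GGACT lay at 127 nt in intron 7, and 2 Cfg2 peaks followed it at 214 and 307 nt.

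Dst, which encodes a cytoskeletal linker related to Macf1, had 3 of the 13 cassette-exon peaks, all Cfg1 in the coding sequence of a 2703-nt exon, and 2 more peaks in the neighbouring 2770-nt last exon of the same intron 35. Triml1, which encodes a tripartite motif protein, had 3 Cfg1 peaks in a 502-nt cassette exon. Setd4 and Pcf11, which encodes a factor of transcript cleavage and termination, had 3 and 2 of the 9 peaks in exons with an alternative 5′ splice site, all Cfg1. Trim27 and Fbrsl1 had 2 peaks each in single-exon transcripts. Among noncoding genes, Platr10 and Platr21 had 1 Cfg1 peak each.

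Peaks in alternative last exons lay downstream of the stop codon in most coding cases, as the restriction to last exons requires in part. An alternative transcript with an annotated stop codon was available for 182 peaks, and 40 of these (22.0%, 16.6 to 28.5) lay within 200 nt of its stop codon, beside 23.8% of the SySy exonic peaks in representative transcripts. In read-through last exons 15 of 36 did (41.7%, 27.1 to 57.8), and in last exons with their own 3′ splice site 12 of 65 (18.5%, 10.9 to 29.6). Past the stop codon lay 88 of the 101 peaks in alternative last exons of transcripts with an annotated stop codon. Of all 182 peaks 119 did, and of 8744 SySy exonic peaks in any exon of representative transcripts 3242 did. In first exons 4 of 35 lay within 200 nt and 3 past the stop codon. These shares were chosen after the values were seen and are given without a test.

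Annotated ends of these last exons differed in whether they carried a polyadenylation signal, AATAAA or ATTAAA on the RNA strand in the last 50 nt. Of 29 protein-coding last exons with their own 3′ splice site, 24 did (82.8%), beside 75.9% of 4076 last exons of representative coding transcripts with a SySy peak. Other transcripts of that class had it in 5 of 17 (29.4%). Read-through last exons had it in 11 of 21 protein-coding cases (52.4%) and 14 of 34 others (41.2%). A match is a description of letters and not a site of use.

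GGACT, searched on the RNA strand alone, was present in 115 of the 357 peaks (32.2%), with 1 copy in 80, 2 in 31, 3 in 1 and 4 in 3. The peaks with 4 copies were those of Baz2a, of Eda2r, which encodes a receptor of the TNF family, and of Icam1, which encodes an adhesion molecule. The share was lower than in SySy intronic peaks outside every exon (42.5% of 532), with a difference of -10.3 points (95% interval -16.6 to -3.77). Fisher's exact test, two-sided, gave an adjusted p = 0.0061 over 10 tests. SySy exonic peaks had 34.4% of 8949, a difference of -2.22 points (-6.96 to 2.89, exact adjusted p = 0.47). The share was higher than in the 230 Abcam-only intronic peaks inside alternative exons (19.1%), by 13.1 points (5.83 to 19.9, exact adjusted p = 0.002). In windows of 100 nt around the midpoint, 23.5% held GGACT, against 10.7% of the 100-nt windows of alternative exonic sequence in the same introns, 7.82% of the other windows of these introns and 19.8% of the windows of all 17068 peaks.

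The lower share against peaks outside every exon moved with repeats. Repeats, marked in the reference genome by soft-masking, covered 50% or more of the bases of 160 of the 532 peaks outside every exon (30.1%, 26.3 to 34.1) and of 17 of the 357 peaks in alternative exons (4.76%, 2.99 to 7.49). Of the 160 repeat peaks, 54.4% held GGACT. Without peaks of that kind the shares were 32.1% of 340 and 37.4% of 372, a difference of -5.31 points (exact adjusted p = 0.31). With 1 peak per intron the difference was -6.18 points (exact adjusted p = 0.36). Soft-masked bases made up 17.5% of the alternative exonic sequence of the introns with these peaks and 27.5% of their other sequence.

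**Figure D5:**
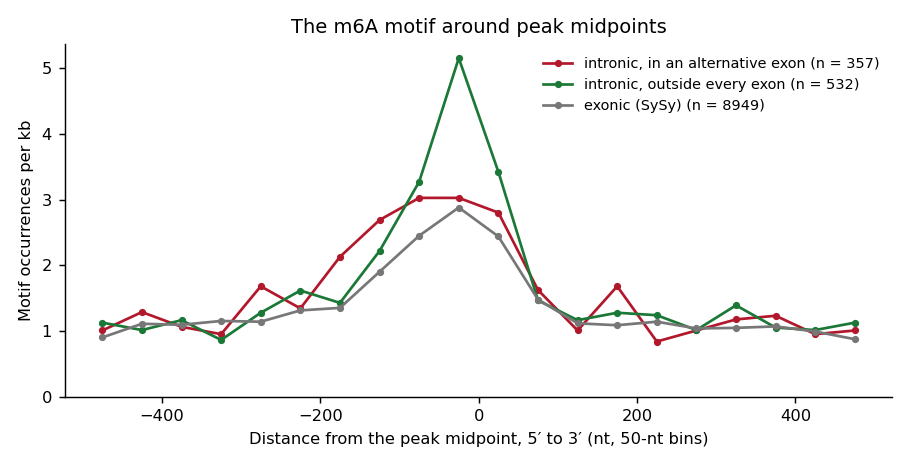
GGACT occurrences per kb in 50-nt bins around the peak midpoint, along the RNA strand, for the 357 peaks in alternative exons (red), the 532 SySy intronic peaks outside every exon (green) and the 8949 SySy exonic peaks (grey). In the bin just upstream of the midpoint the red line reaches 3.03 per kb and the green line 5.15, and beyond 300 nt all lines lie between 0.865 and 1.39.

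GGACT was present in 35.9% of the 142 Cfg1 and 29.8% of the 215 Cfg2 peaks, a difference that did not pass the test (6.15 points, -3.67 to 16.1, exact adjusted p = 0.35). With the shorter motif GGAC the shares were 71.1% and 59.1% (exact adjusted p = 0.049). Cfg1 peaks were wider, with a median of 185 nt against 146 nt in Cfg2, and the part of width in the GGAC result was not tested. The share of Cfg1 among the 357 peaks, 39.8%, was lower than the 51.2% among SySy exonic peaks (difference -11.4 points, -16.5 to -6.15, exact adjusted p = 0.00012). Against SySy intronic peaks outside every exon (35.5%) the difference was 4.25 points (-2.21 to 10.7, exact adjusted p = 0.34). Peaks in whole-intron exons had 30.1% in Cfg1 and the other peaks 42.3% (difference -12.1 points, -23.1 to 0.497, exact adjusted p = 0.12). Members of 1 intron and subpeaks split from 1 broad peak share their source, so these p-values treat related peaks as separate.

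Another SySy peak lay within 500 nt of 60.2% of the 357 peaks and of 42.1% of those outside every exon (difference 18.1 points, 11.4 to 24.6, exact adjusted p = 1.3e-06). The share among SySy exonic peaks, not tested against these, was 60.7%. Of the 215 peaks in alternative exons with such a neighbour, 42 had one from another called peak, and the rest had only subpeaks of the same called peak. The list names mark 198 of the 357 peaks (55.5%) as such subpeaks, 36.7% of those outside every exon and 53.3% of the SySy exonic peaks. With 1 subpeak per called peak and neighbours taken only from other called peaks, the shares were 12% of 250 and 9.20% of 435 (exact adjusted p = 0.48). By gene, 138 of the 216 had 1 peak and 13 had 4 or more, and 75 of the 221 introns had several. A SySy peak in a representative exon of the same gene was present for 56.6% of the 357 peaks and 54.1% of those outside every exon (difference 2.45 points, -4.22 to 9.04, exact adjusted p = 0.49), while 103 of the 216 genes had none.

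The gene lists examined contributed few peaks. Among all protein-coding genes with a SySy peak, 207 of 4095 (5.05%) had a peak in an alternative exon. The m6A machinery had them in 2 of 15 genes, Wtap with 1 and Ythdc1 with 4. The writer and auxiliary genes Virma, Zc3h13, Cbll1, Rbm15, Rbm15b and Pcif1 had SySy peaks in representative exons only, as did the readers Ythdf1, Ythdf2, Ythdf3, Hnrnpa2b1 and Prrc2a and the eraser Fto. The single intronic SySy peak of Alkbh5, the other eraser, lay outside every exon. Mettl3, Mettl14, Mettl16, Mettl5, Zcchc4, Ythdc2, Igf2bp1, Igf2bp2, Igf2bp3, Hnrnpc and Fmr1 had no SySy peak.

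A list of SR proteins, hnRNPs and other splicing factors had such peaks in 6 of 23 genes. Hnrnpl and Hnrnpll, paralogues that encode splicing repressors, each had 2 Cfg1 peaks in a read-through last exon in intron 6, at 536 and 788 nt in Hnrnpl and at 344 and 545 nt in Hnrnpll. In both genes 1 of the 2 peaks held 2 GGACT. Son, which encodes a splicing cofactor of nuclear speckles, had 2 Cfg2 peaks in a last exon with its own 3′ splice site, and Luc7l, which encodes a U1 snRNP-associated protein, had 1 Cfg2 peak. Cytoskeletal linkers and giant scaffolds had them in 5 of 21 genes, Macf1, Dst, Cit with 3 peaks, Utrn with 1 and Sptbn1 with 1. Chromatin regulators had them in 3 of 58 genes, Setd4, Spen and the demethylase gene Kdm2a. DNA replication and repair genes had them in 1 of 38, Orc3, a gene of the replication origin recognition machinery, with 2 Cfg1 peaks. Pluripotency factors had them in 0 of 17 genes. The lists were described by counts alone, without a test.

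The median GC content was 49.6% over the 357 peaks and 45.0% over their introns, and 237 peaks were above their own intron. That count was not made for other peaks. The paper reports high GC content for intronic m6A in general, against control regions of the same intron. Other peaks had similar medians, 51.4% in SySy exonic peaks and 47.7% in SySy intronic peaks outside every exon. Abcam-only intronic peaks inside alternative exons had 50.0%. First exons (53.8%) and whole-intron exons (52.6%) had the highest medians among the large classes, and last exons with their own 3′ splice site (46.8%) and read-through last exons (47.1%) the lowest.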

How the data were processed

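Peaks were called by the authors with MACS2 (2.1.1) on pooled duplicate precipitates and inputs for each antibody, stranded, trimmed around summits, and split into subpeaks where several summits were called. The deposited files are lists of genomic intervals on mm10 with start and end positions and a score column in which each deposited score is 0. The columns of unmapped samples number 0. One entry (1) had a stray strand character. Intervals were placed on GENCODE vM21 (the study used a later release) with 35325 representative transcripts, without pseudogenes, immune receptor segments and small structured RNA genes. Spliced reference sequence matched all 445 of 445 transcripts checked. Other exons came from any annotated transcript, and the class from the best-supported one (basic tag, support level, longest exon).

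The samples were grouped by their titles. Shares were compared by Fisher's exact test (two-sided, scipy 1.17.1) with Wilson intervals for shares, Newcombe intervals for differences and Benjamini-Hochberg adjustment over 10 tests at a threshold of 0.05, in Python 3.11.15 with pysam 0.24.0. The placement and the tests were checked on simulated data. Intervals cover counting error only. The regions, gene lists and loci were chosen with earlier results of these data known. Genes named were the m6A machinery, fixed loci, the 12 genes with the most peaks, the 3 leading genes per class, up to 4 per gene list, 5 noncoding genes and the 3 peaks with the most GGACT. Predicted genes with clone names were left unnamed, and Sptbn1 was named to complete its list. The stop codon, polyadenylation signal, repeat and density descriptions were chosen with values in view. Alternatives covered the transcript choice, the motif, peak width and window, related peaks, leading genes, repeats and the neighbour distance.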

Additional observations from a re-analysis of the deposited data

How the results depend on the processing

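Of 102 alternative settings of the 10 tests, 84 kept both direction and call. Restricting other exons to basic transcripts left 171 of the 357 peaks. The other 5 placements gave 244 to 340 peaks, and of the 244 under the longest transcript per gene 199 were among the 357. The GGACT difference against peaks outside every exon lost its call with 1 peak per intron (-6.18 points), with peaks of at least 200 nt (-10.3), and with 2 settings added after seeing the data, peaks under 50% soft-masked (-5.31) and 1 subpeak per called peak (-9.46, exact adjusted p = 0.053). Against SySy exonic peaks it changed sign with 100-nt windows (0.655), 4 motifs (0.13) and peaks of at least 200 nt (1.91). Against Abcam-only peaks it lost its call with basic transcripts (13.3, exact adjusted p = 0.17) and peaks of at least 200 nt (8.21, exact adjusted p = 0.63). Cfg1 against Cfg2 passed the threshold with GGAC (12.1) and with 4 motifs (17.3, exact adjusted p = 0.00089), and changed sign in peaks of at least 200 nt (-15.2). Whole-intron against other peaks changed sign in GGACT with the longest transcript per gene (1.49), and passed the threshold in Cfg1 share without first exons and single-exon transcripts, a setting added after seeing the data (-16.4, exact adjusted p = 0.035). The neighbour difference lost its call with 1 subpeak per called peak (2.80). The share with an exonic peak in the gene changed sign with 1 peak per intron (-0.392), without the 3 leading genes (-0.509) and without soft-masked peaks (-1.03). Without retained_intron transcripts, read-through last exons fell from 21.8% to 16.9% of the peaks, whole-intron exons from 20.4% to 13.9%, and last exons with their own 3′ splice site made up 32.0% instead of 23.8%, with the same count of 85 on a base of 266 peaks. The cause of the other changes was not tested. No paired analysis was possible because the lists are pooled and hold no value per library, so replicates could not be left out, and with scores of 0 no stricter calling threshold could be applied.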
